A study of Mus musculus with 6 samples.

Results

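The transcripts of 9 genes that carry retinoids or convert them were compared between mouse embryonic stem cells with and without the NAD-dependent protein deacetylase Sirt1. They were the carriers Rbp4, Crabp1, Crabp2 and Fabp5 and the enzymes Rdh10, Dhrs3, Aldh1a2, Cyp26a1 and Cyp26b1, taken as every probe set annotated to exactly 1 of these symbols. This gave 11 probe sets of 45037, and 9 genes of the 18193 that could be named. The cells were of the R1 line of strain (129X1 x 129S1)F1, with the genotype Sirt1+/+ (wild type) or Sirt1-/- (knockout). Cells of either genotype were grown on gelatin, without a stated feeder layer, in high-glucose medium with fetal bovine serum, beta-mercaptoethanol and leukaemia inhibitory factor, a cytokine that holds them in the undifferentiated state. Total RNA of 3 samples per genotype was hybridised to Affymetrix 3' expression arrays, 1 array per sample. No retinoid treatment is named in the labels, so the values describe cells in maintenance medium. The labels name 1 source of cells per genotype and do not say whether the 3 samples were separate cultures. The p-values therefore set the difference between genotypes only against the spread among these samples, which may be technical. Sirt1 loss and any other difference between the sources cannot be told apart.

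Retinol (vitamin A) leaves the liver bound to the plasma carrier RBP4 and enters cells through receptors such as STRA6 or by endocytosis. Inside the cell RDH10 oxidises it to retinal, DHRS3 turns retinal back into retinol, and ALDH1A2 oxidises retinal irreversibly to retinoic acid. CRABP2 hands retinoic acid to the nuclear retinoic acid receptors, FABP5 can carry it to the receptor PPARD, and CRABP1 holds it in the cytosol and is linked to its breakdown by CYP26A1 and CYP26B1. In embryonic stem cells retinoic acid is a strong differentiation signal, and Cyp26a1 is among the genes it induces most directly.

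Values are log2 levels after robust multi-array averaging (RMA), on which 1 unit is a doubling. A gene was called changed at a Benjamini-Hochberg adjusted p under 0.05 over all 18193 genes in limma, a linear model with moderated variances. Sirt1 itself read 10.12, 10.13 and 10.23 on the wild-type arrays, against 8.02, 7.94 and 8.20 on the knockout arrays, a fall of 4.31-fold (limma, adjusted p = 3.98e-05), so the labels and the targeted transcript went the same way. Embryonic stem cell markers were high in either genotype, with a mean log2 level over 10 markers of 11.87 to 11.90 in wild type and 11.55 to 11.59 in knockout. Pearson's r across genes was 0.997 to 0.998 within a genotype and 0.989 to 0.991 between genotypes (a description, since genes do not replicate each other).

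The carriers and the enzymes of the pathway did not move as a block. Of the 9 genes 2 rose (Crabp2 and Fabp5), 3 fell (Rbp4, Crabp1 and Aldh1a2) and 4 did not pass (Rdh10, Dhrs3, Cyp26a1 and Cyp26b1). Over all genes 12.5% rose and 17.5% fell, 30.0% in all. For the 5 genes that passed, the values of the genotypes did not overlap, as was the case for 43.8% of all genes, and for the other 4 they did. Crabp2 and Rbp4 passed with a change of at least 2-fold, as did 1.93% of all genes. The median change of the 9 genes was -0.05 on the log2 scale, against -0.01 over all genes, and their median absolute change was 0.24 against 0.14. With 1 array left out the median of the 9 ran from -0.13 without knockout replicate 2 to 0.0204 without wild-type replicate 1, so it has no settled sign.

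**Figure D1:**
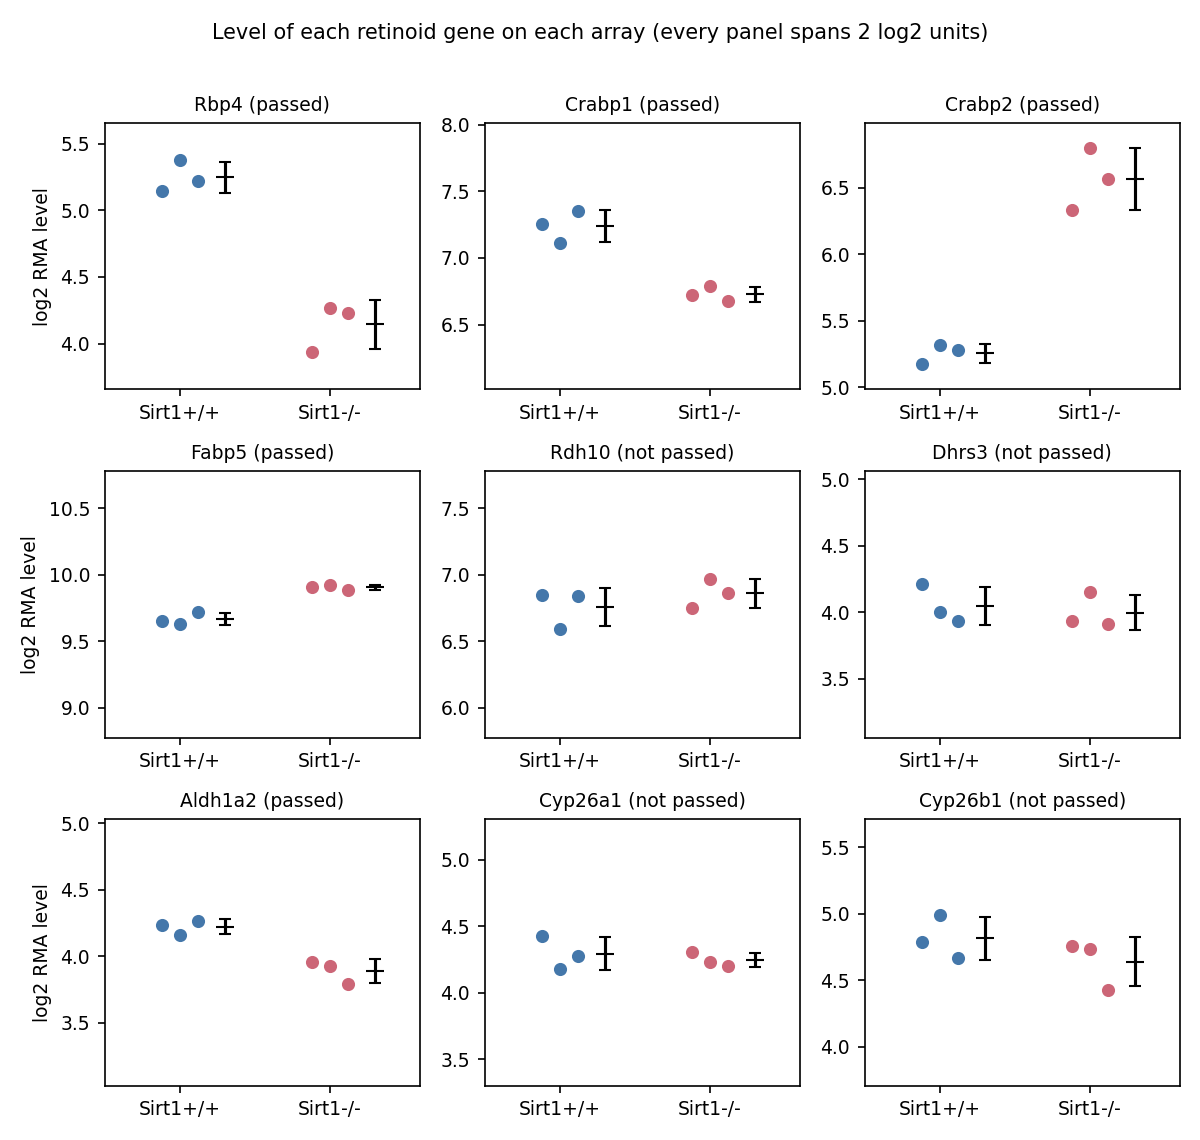
Log2 RMA level of each of the 9 retinoid genes on each array (points), with the mean and SD of each genotype (bar beside the points, n = 3); every panel spans the same 2 log2 units. The genotypes are apart for Rbp4, Crabp1, Crabp2, Fabp5 and Aldh1a2 and overlap for Rdh10, Dhrs3, Cyp26a1 and Cyp26b1, and the widest gap is that of Crabp2, from 5.26 to 6.56.

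Crabp2, the carrier that delivers retinoic acid to its nuclear receptors, showed the largest change of the 9. It read 5.17, 5.32 and 5.28 on the wild-type arrays, against 6.33, 6.80 and 6.56 on the knockout arrays. Every knockout array lay far above every wild-type array, and the knockout arrays were the more scattered. The means were 5.26 ± 0.07 and 6.56 ± 0.23 (SD, n = 3 each). The rise was 1.31 on the log2 scale, or 2.48-fold (SE 0.12, 95% confidence interval 1.02 to 1.59; limma, Benjamini-Hochberg adjusted p = 0.000471). By size of change it stood 150th among the 18193 genes.

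Crabp1, the paralogue that holds retinoic acid in the cytosol, went the other way. It read 7.25, 7.11 and 7.35 on the wild-type arrays, against 6.72, 6.79 and 6.67 on the knockout arrays. All 3 knockout arrays lay below the lowest wild-type array. With means of 7.24 ± 0.12 and 6.73 ± 0.06 (SD, n = 3 each), it fell by 0.51 on the log2 scale, to 70.1% of the wild-type level (SE 0.07; limma, Benjamini-Hochberg adjusted p = 0.00267).

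The difference between these paralogues within each array describes both changes in 1 value and adds no evidence, since it was formed after Crabp2 was seen to rise and Crabp1 to fall. The log2 level of Crabp2 minus that of Crabp1 was -2.08, -1.80 and -2.07 on the wild-type arrays, against -0.39, 0.01 and -0.11 on the knockout arrays. Probe sets of different genes differ in how brightly they report, so only the change of this difference between genotypes is comparable, not its zero. That change, the sum of the rise and the fall, was 1.82 log2 units, or 3.53-fold. An exact permutation test of it, counting both directions, gave p = 0.1. This is the smallest p-value the test allows with 3 arrays per group, so it could not have passed 0.05 and decides nothing.

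Fabp5, a fatty acid carrier that also binds retinoic acid, rose slightly on its brighter probe set. That probe set read 9.65, 9.63 and 9.72 on the wild-type arrays, against 9.91, 9.92 and 9.89 on the knockout arrays. The arrays of a genotype lay close together, and the genotypes were apart. The means were 9.67 ± 0.05 and 9.91 ± 0.02 (SD, n = 3 each), 1.18-fold apart, and the log2 rise of 0.24 passed (SE 0.05; limma, Benjamini-Hochberg adjusted p = 0.0101). Its dimmer probe set gave a change of the same size, 0.25 (95% confidence interval 0.06 to 0.44), with knockout arrays at 7.98, 8.11 and 8.23 all above the wild-type arrays at 7.82, 7.82 and 7.92, and missed the threshold over all probe sets (limma, Benjamini-Hochberg adjusted p = 0.0720). The brighter probe set passed in that same fit over all probe sets (adjusted p = 0.0259). Ppard, the nuclear receptor to which FABP5 can carry ligands, rose from 5.80 to 6.11, a log2 change of 0.31 (limma, adjusted p = 0.0178). That call was lost without wild-type replicate 1 or 3, at adjusted p = 0.0544 and 0.0542.

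Rbp4, the extracellular retinol carrier, fell to 46.5% of its wild-type level. It read 5.14, 5.38 and 5.22 on the wild-type arrays, against 3.93, 4.27 and 4.23 on the knockout arrays. The groups were far apart, and the knockout arrays were all below the array medians of 4.51 to 4.57, where background limits a measured fold. The change was -1.10 (SE 0.11; limma, Benjamini-Hochberg adjusted p = 0.000627), from 5.25 ± 0.12 to 4.14 ± 0.18 (SD, n = 3 each).

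Rbp4 is made by visceral endoderm in the early embryo, and part of a list of extraembryonic endoderm markers fell with it. Of 17 such markers measured, 9 fell, 8 did not pass and 0 rose (limma, with none higher at an unadjusted p under 0.05 either). Over all genes 17.5% fell and 12.5% rose. The 8 that did not pass were Ttr, Gata4, Afp (log2 change -0.01), Apoe (-0.08), Hnf4a (-0.09), Apoa1 (-0.11), Apob (-0.27) and Foxa2 (-0.30). The Sox7 call was lost with the mean of all probe sets (limma, adjusted p = 0.0615). The 17 markers had a mean log2 level of 6.18 to 6.20 on the wild-type arrays and 5.35 to 5.47 on the knockout arrays. Cubn, an endocytic receptor, fell by 2.24 on the log2 scale, Dab2, its adaptor, fell by 1.80, while the transcription factors Gata6 (log2 change -1.33) and Sox17 (-0.78) passed as well. Other probe sets of these genes gave smaller changes, -1.27 for Cubn and -0.47, -0.28 and -0.22 for Dab2, of which the last 2 did not pass. Averaged over all its probe sets, Dab2 read -0.69 and Gata6 -0.57, whereas Sox17 read -1.37. Gata4, Afp and Apob were below the array median on all 6 arrays. Ttr, which binds RBP4 in plasma, read 5.52 ± 0.09 and 5.44 ± 0.03 (SD, n = 3 each), a log2 change of -0.08 that did not pass (limma, adjusted p = 0.379). In bulk RNA fewer cells of a type and less RNA per cell cannot be told apart, and the part of the endoderm markers in the fall of Rbp4 was not tested.

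Among the proteins that move retinol into cells and store it, 15 other genes were measured, of which 1 rose, 3 fell and 11 did not pass, beside 30.0% called over all genes. Their median log2 change was 0.06, and -0.01 to 0.12 with 1 array left out (lowest without wild-type replicate 3, highest without wild-type replicate 1). Lrp2, or megalin, the endocytic receptor that takes up retinol bound to RBP4, read 5.42, 5.46 and 6.14 on the wild-type arrays, against 4.68, 4.03 and 4.63 on the knockout arrays. Its wild-type replicate 3 was the highest array, and the groups did not overlap (log2 change -1.23, SE 0.25; limma, adjusted p = 0.0117). This call was lost under an unmoderated linear model (adjusted p = 0.0618). Another Lrp2 probe set fell by 1.31, and a dim one changed by 0.00. Scarb1, a lipoprotein receptor, rose by 0.49, while Dgat1, an acyltransferase that can esterify retinol, fell by 0.38 and lipoprotein lipase Lpl by 0.37, each on 1 of 2 probe sets. Stra6, the membrane receptor for RBP4, and Lrat, the main retinol esterifying enzyme, did not pass, with mean levels in wild type of 3.60 and 2.77, in the dim range of the arrays.

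**Figure D2:**
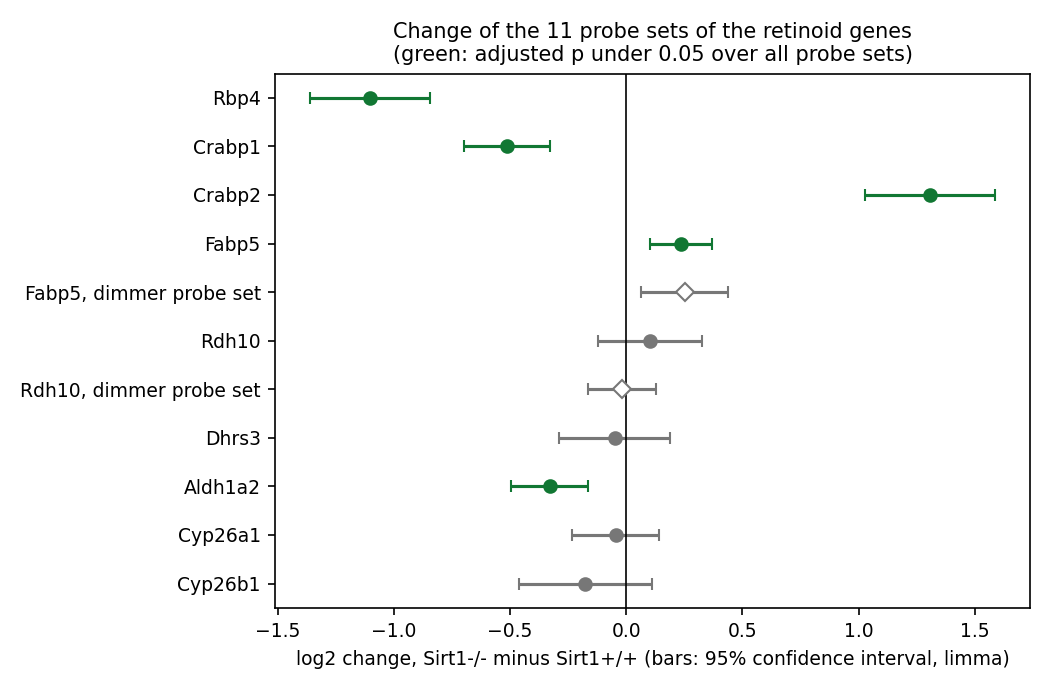
Log2 change (Sirt1-/- minus Sirt1+/+) of all 11 probe sets of the 9 retinoid genes with 95% confidence intervals from limma; circles are the brightest probe set of a gene, diamonds the dimmer one, green marks an adjusted p under 0.05 over all probe sets. Crabp2 lies at 1.31 and Rbp4 at -1.10, both Fabp5 probe sets lie at 0.24 and 0.25, and both Rdh10 intervals span 0.

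Of the enzymes that make retinoic acid, Aldh1a2 fell and Rdh10 did not pass. Aldh1a2, the retinaldehyde dehydrogenase of the early embryo, read 4.24, 4.16 and 4.27 on the wild-type arrays, against 3.96, 3.92 and 3.79 on the knockout arrays. The groups did not overlap, but all 6 arrays lay below their array's median, so the measured change is one between dim signals. It was -0.33 (SE 0.06; limma, Benjamini-Hochberg adjusted p = 0.00909), from 4.22 ± 0.06 to 3.89 ± 0.09 (SD, n = 3 each), or to 79.6% of the wild-type level.

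Rdh10, the retinol dehydrogenase of the first oxidation, read 6.85, 6.59 and 6.84 on the wild-type arrays, against 6.75, 6.97 and 6.87 on the knockout arrays. The genotypes overlapped, and the change was 0.10 (95% confidence interval -0.12 to 0.32; limma, adjusted p = 0.481). Its dimmer probe set read -0.02 (95% confidence interval -0.16 to 0.13).

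Dhrs3, which returns retinal to retinol, was dim on every array. It read 4.21, 3.999 and 3.94 on the wild-type arrays, against 3.93, 4.15 and 3.91 on the knockout arrays. Wild-type replicate 1 was the highest array, and the change was -0.05 (95% confidence interval -0.28 to 0.18; limma, adjusted p = 0.764). All 6 arrays lay below their array's median.

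The genes of retinoic acid breakdown did not pass. Cyp26a1 read 4.42, 4.18 and 4.27 on the wild-type arrays, against 4.31, 4.23 and 4.20 on the knockout arrays. These dim values overlapped fully, with a change of -0.05 (95% confidence interval -0.22 to 0.13; limma, adjusted p = 0.715). Cyp26b1, the paralogue, read 4.78, 4.99 and 4.67 on the wild-type arrays, against 4.76, 4.73 and 4.43 on the knockout arrays. Its groups overlapped as well, with knockout replicate 3 the lowest array and a change of -0.18 (95% confidence interval -0.46 to 0.11; limma, adjusted p = 0.343). Cyp26a1 lay below the array median on all 6 arrays and Cyp26b1 on 1, where background limits a measured fold. The values do not show that either gene is equal between genotypes. They show only that a change of the measured signal past these bounds lies outside the intervals.

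Cyp26a1 carries a textbook retinoic acid response element in its promoter, which is shown because this gene is the usual readout of retinoic acid signalling. Promoter windows (250 bases before to 50 after an annotated start, RefSeq, GRCm38.p6) were at hand for 6 of the 9 genes, in 9 windows. Crabp2, Fabp5 and Rdh10 had no window and were not searched. They were searched on both strands for direct repeats of 4 hexamers (the first AGGTCA, the next AGTTCA, then GGTTCA and lastly GGGTCA), in any pairing, with spacers of 1, 2 or 5 bases. Of the 9 windows 1 held a match, that of Cyp26a1, and it was the repeat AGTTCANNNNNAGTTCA, which 8 of 32851 windows (0.0244%) hold. Any of the repeats with a spacer of 5 was found in 32 windows (0.0974%), with a spacer of 2 in 88 (0.268%) and with a spacer of 1 in 73 (0.222%). The Cyp26a1 site and, for comparison, that of the receptor gene Rarb are printed from 5′ to 3′ on the strand of the gene, with the hexamers in capitals. For Cyp26a1 the printed strand shows the reverse complement of the repeat.
Cyp26a1 (chr19:37697770-37697798, + strand, first hexamer 32 bases before the start): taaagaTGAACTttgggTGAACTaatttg
Rarb (chr14:16575507-16575535, - strand, first hexamer 53 bases before the start): gggaagGGTTCAccgaaAGTTCActcgca
Rarb, like Cyp26a1, did not pass, at 3.25 ± 0.20 with Sirt1 and 2.75 ± 0.31 without (SD, n = 3 each; log2 change -0.49, 95% confidence interval -0.91 to -0.08; limma, Benjamini-Hochberg adjusted p = 0.0784). Of the 11 measured genes with a spacer-5 repeat in a window, 1 passed, beside 30.0% of all genes. That gene was Syndig1, which fell by 0.37. A match of letters is a description of the window and not a site shown to be bound in these cells.

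**Figure D3:**
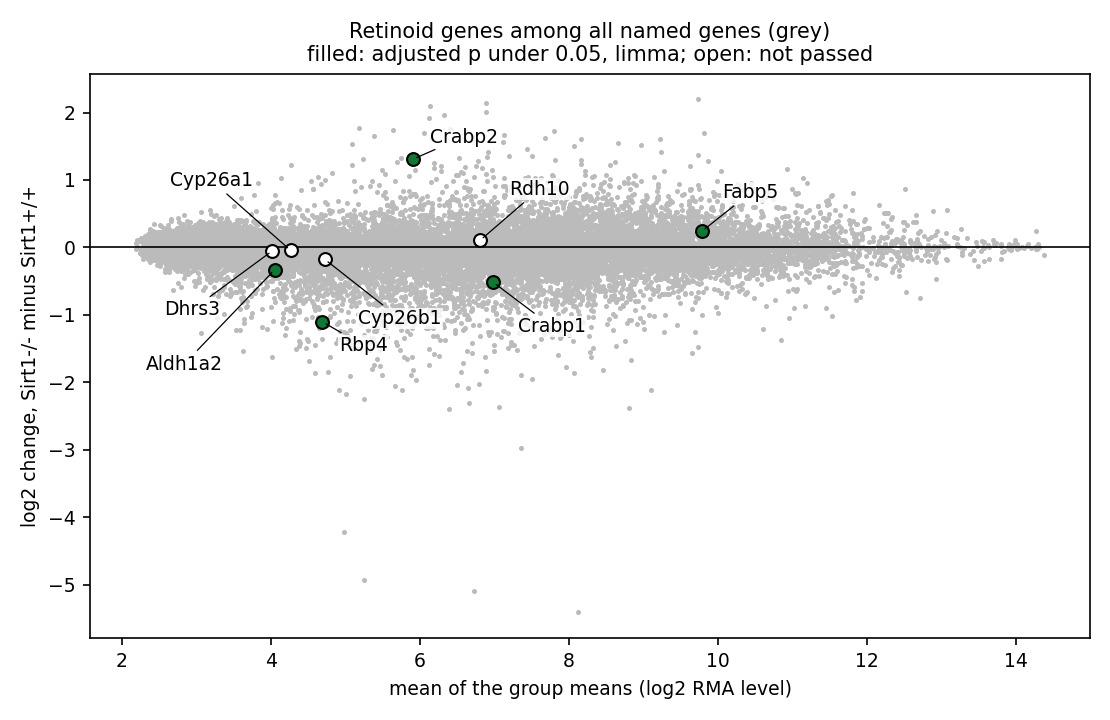
Log2 change (Sirt1-/- minus Sirt1+/+) of the 18193 named genes (grey) against the mean of their group means in log2 RMA units, with the 9 retinoid genes marked (filled: adjusted p under 0.05; open: not passed). Crabp2 and Rbp4 stand at 1.31 and -1.10, and Aldh1a2, Dhrs3 and Cyp26a1 lie at the dim end.

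The other enzymes of retinoid conversion that passed went in either direction. Of 29 measured, 3 rose, 3 fell and 23 did not pass, a smaller share called than the 30.0% over all genes. The 29 had a median log2 change of 0.06, with 0.0157 without knockout replicate 1, 0.0319 without knockout replicate 2 and -0.0012 without wild-type replicate 3. Rdh11, a retinal reductase of the endoplasmic reticulum, rose by 1.01 on the log2 scale (limma, adjusted p = 0.000275), with means of 7.35 ± 0.10 and 8.36 ± 0.11 (SD, n = 3 each), and its other probe set rose by 1.15. Rdh13, a mitochondrial relative, rose by 0.61 and the retinal reductase Dhrs4 by 0.60. Cyp2s1, a cytochrome P450 reported to act on retinoic acid, fell by 1.33 on the log2 scale, from 8.45 ± 0.08 to 7.12 ± 0.09 (SD, n = 3 each; limma, adjusted p = 7.58e-05). Retsat, which saturates retinol, fell by 0.67, and its other probe set by 0.40. The relatives of Aldh1a2 did not pass: Aldh1a1 read 2.68 and 2.54, and Aldh1a3 4.03 and 3.96, in wild type and knockout.

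The nuclear receptors to which the carriers deliver retinoic acid, with their cofactors, gave 3 higher and 5 lower of 13 genes. Over all genes 12.5% rose and 17.5% fell. The median log2 change of the 13 was 0.05, and -0.03 to 0.10 with 1 array left out (lowest without wild-type replicate 1, highest without wild-type replicate 3). Among the coactivators Ncoa1 fell by 0.85, another of its probe sets fell by 0.64, and Ep300 fell by 0.36. The brightest Ncoa3 probe set fell by 0.34, and a dimmer one, at -0.08, did not pass. Ncoa2 had no single direction, since its brightest probe set fell by 0.94 and another rose by 0.65 (limma, adjusted p = 0.00646 over all probe sets). Of the receptors proper Rarg rose by 0.31 and Rxrb fell by 0.20, with adjusted p = 0.0474 and 0.0302 in limma. The Rarg call was lost without any one array other than wild-type replicate 2, at adjusted p of 0.0683 to 0.127. It was also lost after repeated quantile normalisation (adjusted p = 0.0649) and over all probe sets (0.0665). The same held with a replicate block (0.0932) and under an unmoderated linear model (0.120). With the mean of all its probe sets Rarg rose by 0.39 and passed (limma, adjusted p = 0.00631). The Rxrb call was lost without wild-type replicate 1 or 3 or knockout replicate 2 or 3, at 0.0872 to 0.101. The 3 genes that rose, Nrip1, Ppard and Rarg, fell to 0 calls without wild-type replicate 1 or without wild-type replicate 3, to 1 without knockout replicate 2 or 3, and to 2 without wild-type replicate 2 or knockout replicate 1.

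Genes known to respond to retinoic acid gave no common direction beside these carriers. Of 23 measured, 2 rose, 5 fell and 16 did not pass, beside 12.5% that rose and 17.5% that fell over all genes. Tgm2, which fell by 0.18, lost its call whichever array was left out (limma, adjusted p of 0.0506 to 0.0771). The list had a median log2 change of 0.02 that turned negative, as low as -0.09, whichever array was left out. Stra8, a gate to meiosis named for its response to retinoic acid, fell by 2.98 (limma, adjusted p = 2.30e-05). Pdgfra, a growth factor receptor that also marks primitive endoderm, fell by 1.52 on 1 probe set and read -0.09 and 0.11 on the others, and Cdx1, a homeobox gene, rose by 0.99. Rarres2, or chemerin, rose by 0.35, a call that was lost without wild-type replicate 1 or 2 at adjusted p = 0.0548 and 0.0517, and its other probe sets did not pass. With that gene uncalled 1 of the 23 rose. Over the transport, enzyme, receptor and target lists, 79 genes were measured, of which 9 rose, 16 fell and 54 did not pass. These 79 were thus called at about the rate of all genes, of which 12.5% rose and 17.5% fell. Without wild-type replicate 1 the number that rose was 5.

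**Figure D4:**
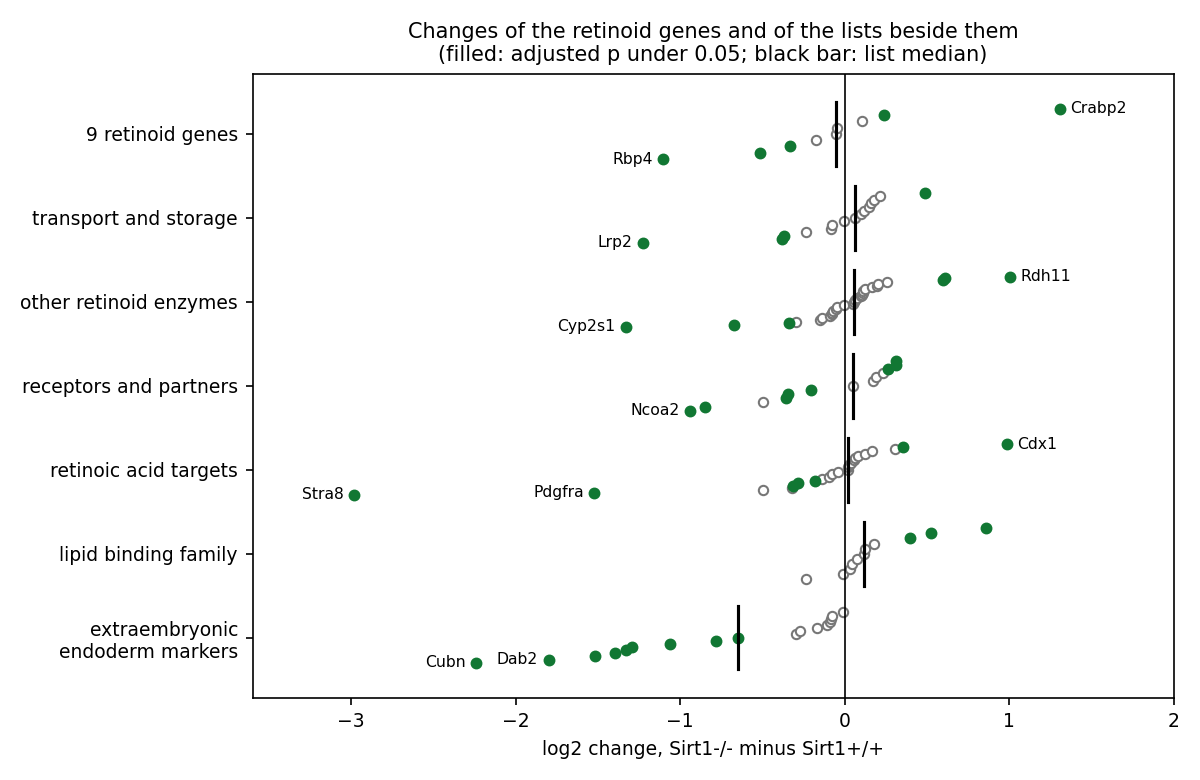
Log2 change (Sirt1-/- minus Sirt1+/+) of every measured gene in the 9 retinoid genes and in the 6 lists described beside them (filled: adjusted p under 0.05; open: not passed; black bar: list median). Each retinoid list scatters on either side of 0, with Stra8 at -2.98 the lowest, whereas the 17 endoderm markers all lie below 0.

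Crabp1, Crabp2 and Fabp5 belong to 1 family of small intracellular lipid binding proteins, whose other members gave 3 higher and 0 lower of 11 measured genes (limma; 0 lower also at an unadjusted p under 0.05; median log2 change 0.12). Over all genes 12.5% rose and 17.5% fell. Without wild-type replicate 2, 1 of the 11 fell, and with the mean of all probe sets 2 rose. Without the dimmest 40% of genes only 1 of the 11, Fabp3, was still tested. Fabp3, the heart-type fatty acid carrier, was bright and rose by 0.86 (limma, adjusted p = 7.15e-05), the means being 12.08 ± 0.02 and 12.94 ± 0.01 (SD, n = 3 each), with its other probe set at 0.58. Fabp1 and Fabp4 rose by 0.53 and 0.39 at levels that stayed under 4 log2 units, and their other probe sets read -0.04 for Fabp1 and 0.06 to 0.09 for Fabp4, none past the threshold. Fabp4, Fabp9, Fabp12 and Pmp2 are the next genes along chromosome 3 from Fabp5, and the last 3 of these did not pass.

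Neighbouring genes on the chromosomes were read because a change shared along a region is not particular to a retinoid gene. Of 83 genes within 5 measured places of any of the 9, 9 rose, 23 fell and 51 did not pass, beside 12.5% and 17.5% over all genes. Crabp2 stood out from its surroundings on chromosome 3, where the 10 neighbours ranged from -0.22 to 0.43. The highest of them was the adjacent Nes, an intermediate filament gene of neural progenitors, whose rise of 0.43 was lost without wild-type replicate 1 (limma, adjusted p = 0.0589).

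Rbp4 and Cyp26a1 lie on chromosome 19 with 3 measured genes between them. Of these Myof, a membrane repair protein gene, fell by 0.87 (limma, adjusted p = 0.00187), while Cep55 read -0.03 and Ffar4 0.04 and did not pass. With the mean of all its probe sets the log2 change of Myof was smaller, -0.37 (limma, adjusted p = 0.0276). Of the 10 neighbours of Rbp4, 8 did not pass, 2 fell and 0 rose. Around Aldh1a2 on chromosome 9, 6 of 10 neighbours fell, by as much as 0.71 for Mindy2, and 1 rose. The fall of Aldh1a2, -0.33, lay within the range of its neighbours, -0.71 to 0.21. Around Crabp1, on the same chromosome, 3 of 10 neighbours fell, by as much as 0.62 for Hykk, and the -0.51 of Crabp1 also lay within their range. Whether the neighbours have a part in the falls of Aldh1a2 and Crabp1 was not tested.

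**Figure D5:**
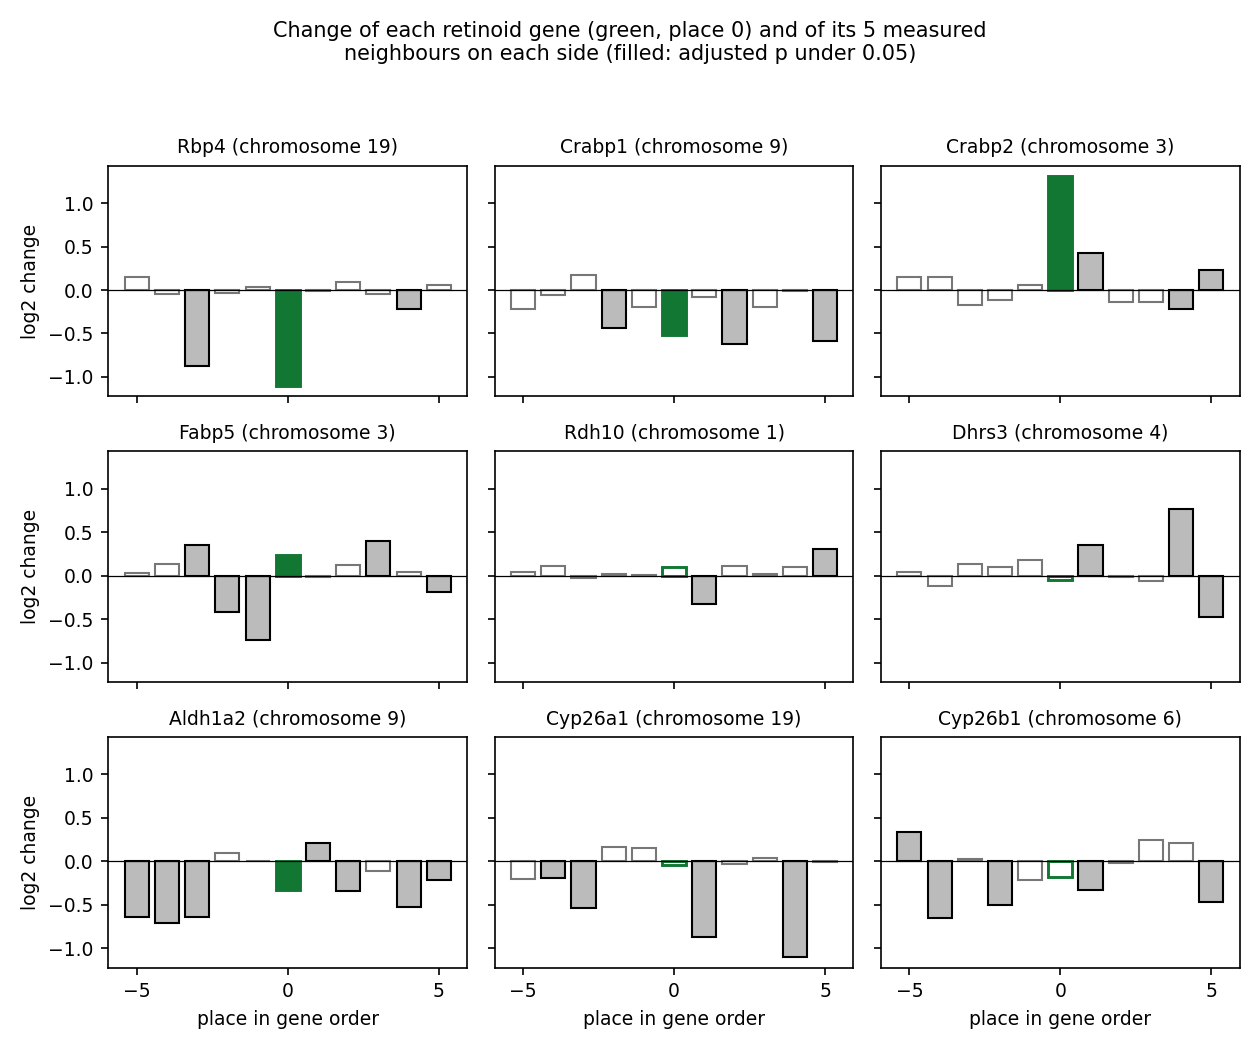
Log2 change (Sirt1-/- minus Sirt1+/+) of each of the 9 retinoid genes (green outline, place 0) and of the 5 measured genes on each side in gene order (filled: adjusted p under 0.05; open: not passed). Crabp2 at 1.31 exceeds its neighbours, whose highest is 0.43, while Crabp1 and Aldh1a2 lie within the range of theirs.

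The genes whose 6 array values ran most like those of the strongest movers were found by the Euclidean distance between log2 values, each gene centred on its own mean. The search covered only genes with a mean level above the median of all genes (5.83) and without a predicted or clone name. Dimmer genes that run more alike would not be found. For Crabp2 these were Gse1 (distance 0.27), Plvap (0.28) and Hsdl1 (0.30), which rose by 1.36, 1.14 and 1.24. For Rbp4 they were Unc13b (0.14), Mettl7a1 (0.18) and Atp11a (0.21), with log2 changes of -1.06, -1.04 and -1.17. The measure mainly finds genes with a genotype difference of like size, over 6 arrays.

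Other markers were read for the remaining cell types that such a culture could hold. Their counts stand beside 12.5% that rose and 17.5% that fell over all genes. Of 7 neural markers 2 rose and 2 fell, a count that was 1 and 1 without wild-type replicate 1, 3 and 1 without knockout replicate 2, 2 and 1 without knockout replicate 1 or wild-type replicate 2, or 3 and 0 with the mean of all probe sets. Their levels overlapped, with a mean log2 level of 5.04 to 5.12 in wild type and 5.02 to 5.12 in knockout, and Sox1 and Neurog2 lay below the array median on all arrays. Of 10 fibroblast markers 1 rose and 3 fell. Thy1 fell by 1.07 on the log2 scale, from 6.23 to 5.16 (limma, adjusted p = 0.000359). Col5a1 fell by 0.63 and Pdgfrb by 0.50 on their brightest probe sets, and their other probe sets did not pass. The Pdgfrb call was lost under an unmoderated linear model (adjusted p = 0.0611). The rise, of Twist1, was lost without wild-type replicate 1 or 2 or knockout replicate 2 or 3 (limma, adjusted p of 0.0897 to 0.129). The list had a mean log2 level of 4.52 to 4.58 in wild type and 4.29 to 4.44 in knockout. Their defining collagen genes Col1a1, Col1a2 and Col3a1 lay below the array median on all arrays. Of the 10 embryonic stem cell markers 6 fell, Nanog most, by 0.90, and 4 did not pass. The part of these shifts in the changes of Crabp2, Crabp1 and Rbp4 was not tested.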

How the data were processed

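RNA of 3 Sirt1+/+ and 3 Sirt1-/- R1 cell samples was measured on 1 array each. The deposited values are log2 levels per probe set. Per the submitters' processing notes they come from RMA in Partek 6.5. The log2 scale was read from the range of values, and for settings and array annotation the sources used here give nothing. Of 45101 probe sets 64 controls were left out, 34945 had 1 gene symbol, 932 several and 9160 none. For each of 18193 genes the brightest probe set by mean over the 6 arrays was used, unfiltered. limma 3.58.1 in R 4.3.3 compared the genotypes (lmFit and eBayes, two-sided, Benjamini-Hochberg adjusted over all genes), and a second fit covered all probe sets. RMA gives no detection call, and 3 arrays per group limit the precision. The procedure was tested on simulated data. By Entrez identifier 18031 genes matched RefSeq on GRCm38.p6, which gave gene order. Alternatives were further normalisation, centring, a filter, probe set means, all probe sets as the tests, other variance models, a replicate block, single arrays left out and a stricter threshold.

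The members, the lists and the tests were chosen with earlier results of these data known. The rule named Sirt1, the 9 genes, up to 4 called genes of each list by size of change, neighbours, and the 3 genes most alike for members changed at least 2-fold. Other genes named, and the promoter repeats searched, were chosen after values were seen.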

Additional observations from a re-analysis of the deposited data

How the results depend on the processing

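At an adjusted p of 0.05 all 9 genes kept their side of the threshold in each alternative in which they were tested, 121 values in all. The sign turned in 2 of these, both unpassed, without wild-type replicate 1: with 1 array left out Cyp26a1 ranged from -0.10 to 0.0204 and Dhrs3 from -0.13 to 0.0296. Likewise Rdh10 ranged from 0.0186 to 0.158 and Cyp26b1 from -0.25 to -0.07. Over the alternatives Crabp2 ranged from 1.19 to 1.42, Rbp4 from -1.16 to -0.998, Crabp1 from -0.58 to -0.46, Aldh1a2 from -0.36 to -0.28 and Fabp5 from 0.22 to 0.26, the last with an adjusted p of up to 0.0441. Without the dimmest 40% of genes 1 member fell in place of 3, since only 4 of the 9 were still tested. At an adjusted p under 0.01, 1 member rose in place of 2, Fabp5 being lost, and 3356 genes passed in place of 5462. The other retinoid genes that rose numbered 5 in place of 9 under an unmoderated linear model and at an adjusted p under 0.01, and 5 to 9 with 1 array left out. Crabp2 minus Crabp1 moved by less than its SD. Of 738 values of 53 other genes, 65 lost the call and 0 reversed; of the receptors and cofactors, 0 rose under the unmoderated model in place of 3. With the replicate number as a block 2 members rose and 3 fell and 4700 genes passed. The numbers may not pair samples: deviations of like-numbered arrays correlated at 0.0515, -0.0865 and 0.198, and wild-type replicate 2 correlated best with knockout replicate 1 (0.229). Dim signal limits Aldh1a2, Dhrs3, Cyp26a1 and Rbp4 in knockout. Cyp26b1 lay near the array median, below it on 1 array, and was also left out with the dimmest 40% of genes.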
